A study of Mus musculus with 12 samples.

Results

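Chemokine ligands are small secreted or membrane-bound proteins that direct the movement of white blood cells. The 40 genes described here were taken, by symbol, from the 46072 genes of the authors' deposited table: every symbol that starts with Ccl, Cxcl, Cx3cl or Xcl followed by a digit. They comprise 25 CC genes, 13 CXC genes, 1 CX3C gene (Cx3cl1) and 1 XC gene (Xcl1), named for the spacing of the conserved cysteines in the protein. Their levels were compared among osteoclasts, macrophages and immature dendritic cells by RNA sequencing, with 4 libraries of each cell type and 12 in all.

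The mice were C57BL/6J, 6 to 8 weeks of age, with no genetic modification named in the labels, and all cells came from marrow of their long bones. Osteoclasts, which are multinucleated and resorb bone, were grown with RANKL at 50 ng/ml in addition to 30 ng/ml of M-CSF. Macrophages received that dose of M-CSF alone. Both had first been expanded for 5 days in M-CSF at 100 ng/ml. Immature dendritic cells were grown in GM-CSF (20 ng/ml), and the labels are not explicit on whether their precursors passed through that M-CSF step. Differentiation lasted 8 to 10 days in each case, and osteoclast wells were briefly treated with Accutase to detach cells with a single nucleus. One mouse gave all 3 cell types of an experiment, per the labels, and marrow was taken in 4 independent extractions.

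Chemokines act through G-protein-coupled receptors, and most receptors bind several ligands. CC chemokines mainly attract monocytes, T cells, eosinophils and dendritic cells, while the CXC chemokines that bind CXCR2 attract neutrophils. Macrophages and dendritic cells are well-known producers of chemokines, and osteoclasts are known for making CCL9, which acts on the receptor CCR1 that they also carry.

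Each deposited level is an average over the 4 libraries of a cell type, in normalised counts. Where that average was 900 or less, the whole reads of each library could be recovered from the digits of that mean, so values per library are given below for those genes only. Libraries are lettered a to d within a cell type by decreasing size factor. The letters cannot be tied to replicate numbers, and library a of one cell type has no link to library a of another. The levels of all genes summed to 2.77e+07 for dendritic cells, 2.42e+07 for osteoclasts and 2.50e+07 for macrophages, and 3 reads over a cell type correspond to a mean of 0.765, 0.749 and 0.729 in that order. Ctsk, the bone-degrading protease cathepsin K, had a mean of 1472 for dendritic cells, 87806 for osteoclasts and 137 for macrophages per the authors' deposited table. Adgre1 (F4/80) was highest in macrophages at 42421 and H2-Ab1, an MHC class II chain, in dendritic cells at 43680, per the authors' deposited table. Over all genes, making the summed means of the cell types equal shifted fold changes of osteoclasts against dendritic cells by 0.19 and of dendritic cells against macrophages by -0.15 (log2). That scaling changed the split of all called genes from 3554 higher and 4275 lower to 5323 and 3342 for osteoclasts against dendritic cells. For dendritic cells against macrophages the split went from 4212 higher and 3396 lower to 3459 and 4625. It changed the call of no chemokine ligand. Of the 7 osteoclast markers 5 were highest in osteoclasts, while Dcstamp and Ocstamp, which act in cell fusion, were highest in dendritic cells at 7666 and 2583 per the authors' deposited table.

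Dendritic cells devoted the largest share of their transcripts to chemokine ligands. The means of the 40 genes summed to 507618 in dendritic cells, 59239 in osteoclasts and 50830 in macrophages per the authors' deposited table, which is 1.83%, 0.244% and 0.203% of the respective totals. Most of the difference came from the CC genes, which summed to 497100, 52268 and 43733 in that order per the authors' deposited table. The CXC genes summed to 9473, 6890 and 6933 per the authors' deposited table. In these bulk samples, fewer cells that make a chemokine and less RNA per cell cannot be told apart.

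A few genes made up most of each total. In osteoclasts Ccl9 was 77.3% of the family's sum, and Ccl9, Cxcl16 and Ccl6 together were 91%. In macrophages the same genes led, with 51.3% for Ccl9 and 76.9% for the 3 together. In dendritic cells Ccl6 was 50% of the sum, and Ccl6, Ccl9 and Ccl17 were 81.4%. Means of at least 1000 were reached by 11 genes of the dendritic cells, 8 of the macrophages and 5 of the osteoclasts.

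Per kilobase of exons, which allows levels of different genes to be compared, Ccl9 was highest in osteoclasts with a mean of 15034 per the authors' deposited table. Ccl6 (1713), Cxcl16 (1665), Ccl2 (1441) and Ccl3 (1031) followed per kilobase in these cells. Macrophages had Ccl9 at 8560 per kilobase, then Ccl6 at 4716, Ccl3 at 3868, Ccl4 at 2623 and Ccl2 at 2587. In dendritic cells Ccl6 (141466 per kilobase) and Ccl17 (134688 per kilobase) stood at the top, ahead of Ccl9 (29544), Ccl3 (23385) and Ccl22 (22670). For these abundant genes no value per library was recovered, so whether neighbours in this order differ beyond their spread was not tested.

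**Figure D1:**
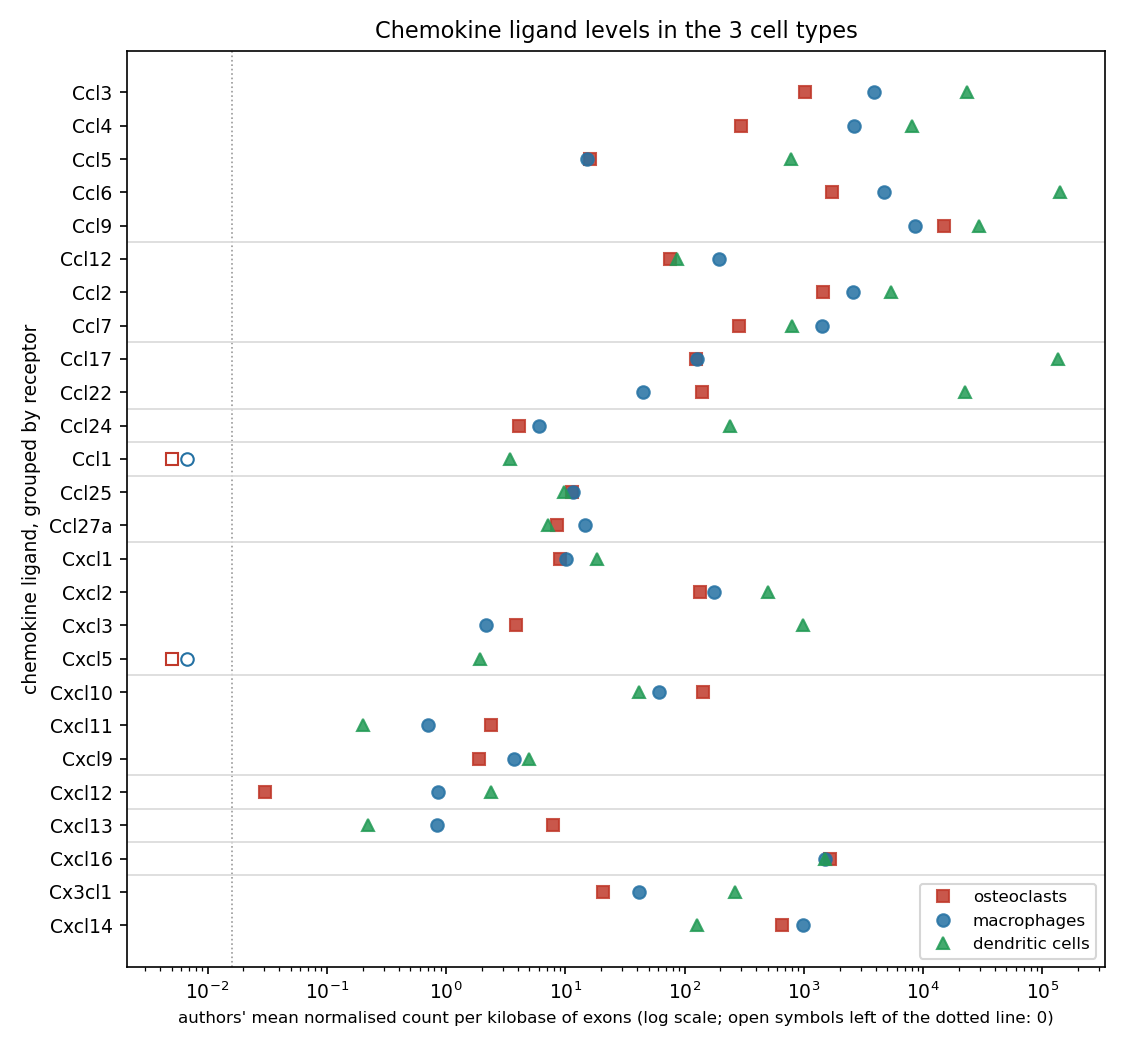
Authors' mean normalised count per kilobase of exons (log axis) for the 26 chemokine ligands named in the text, one symbol per cell type, with genes grouped by receptor. Open symbols left of the dotted line are at 0. Dendritic cells hold the highest value for 17 of the 26 genes, macrophages for 5 and osteoclasts for 4.

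Calls below are the authors' own, at an adjusted p under 0.05, and a standard error (SE) beside a log2 fold change was derived from the authors' p-value. The comparisons share cell types and so are not independent of each other. Between osteoclasts and macrophages 26 ligands were tested, of which 4 were higher in osteoclasts, 4 were lower and 18 were not called per the authors' deposited table. Among all 17822 genes tested, 14.5% were called higher and 14.7% lower. The median log2 fold change was -0.44 over the ligands and -0.03 over all genes. Between osteoclasts and dendritic cells 29 ligands were tested, with 4 higher in osteoclasts, 15 lower and 10 not called per the authors' deposited table. The background over 21217 genes was 16.8% higher and 20.1% lower, and the medians were -1.32 for the ligands and -0.05 for all genes. Between dendritic cells and macrophages 29 ligands were tested, with 13 higher in dendritic cells, 2 lower and 14 not called per the authors' deposited table. Here 20.3% of 20730 genes were called higher and 16.4% lower, and the medians were 0.92 and 0.05. Genes with very few reads had no adjusted p, so those tested are not all members. In all, 20 ligands were called in at least 1 comparison, and 5 (Ccl3, Ccl4, Ccl6, Ccl9 and Ccl22) in all 3. The shares of all genes called in at least 1 or in all 3 were not counted. These 2 counts therefore have no background beside them.

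**Figure D2:**
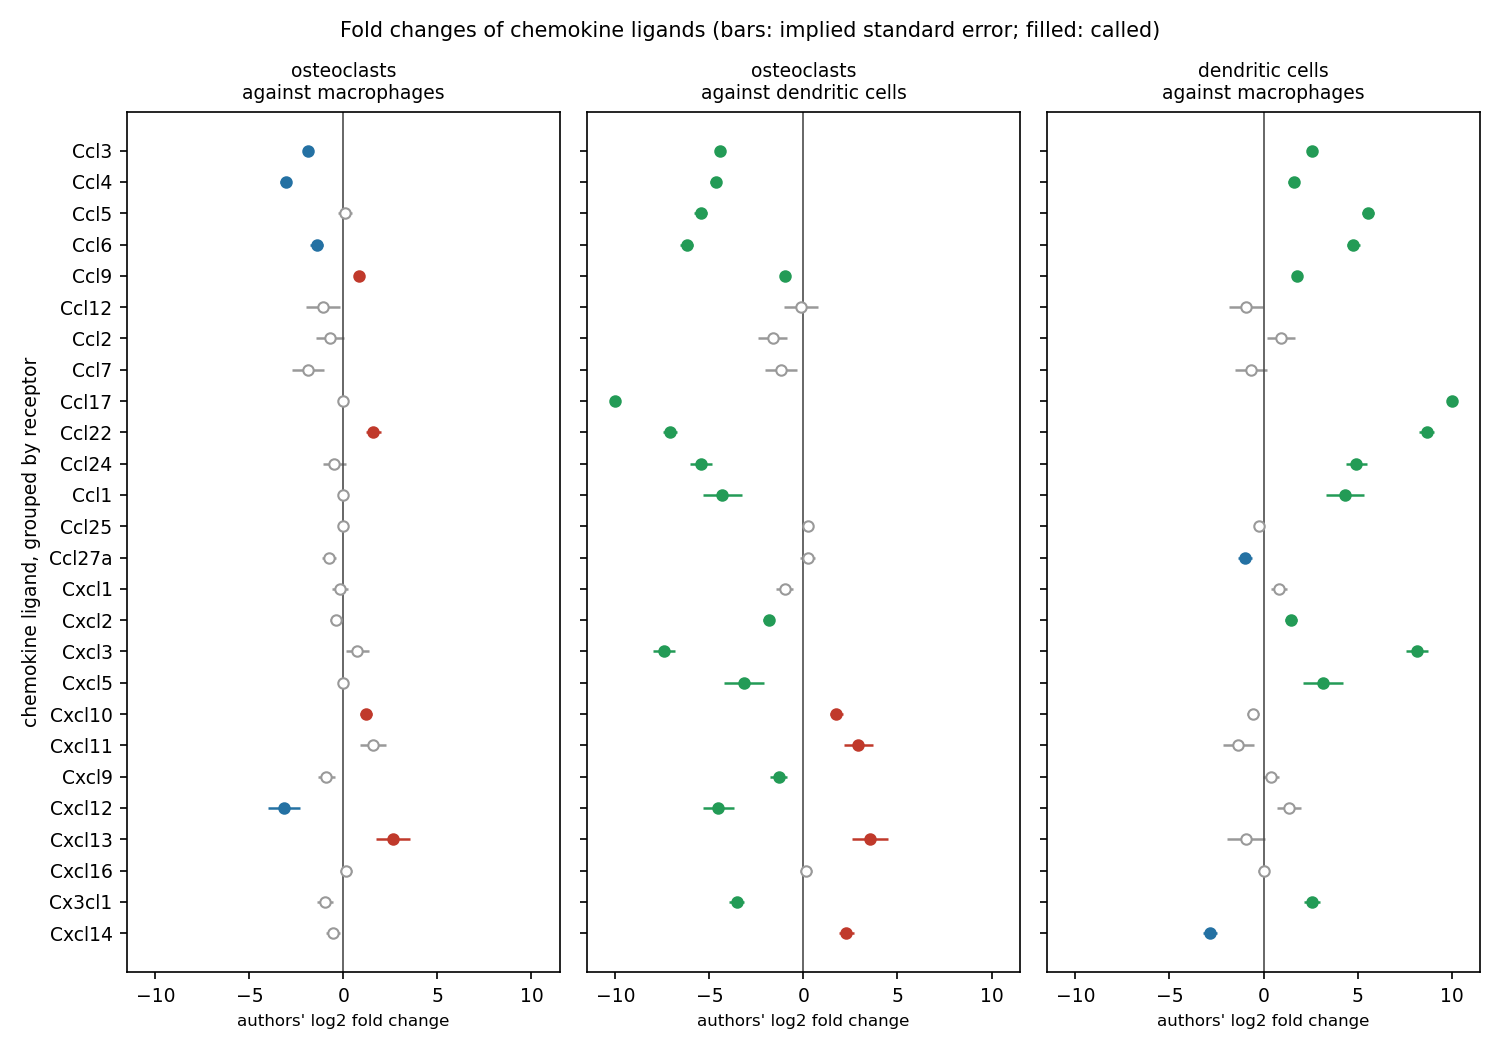
Authors' log2 fold change of the 26 named ligands in the 3 comparisons, with bars for the standard error derived from the authors' p-value. Filled points were called, in the colour of the cell type with the higher level (red for osteoclasts, blue for macrophages, green for dendritic cells), and open grey points were not. The filled points of the middle panel are 4 red and 15 green.

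The 5 CC ligands that are encoded together on chromosome 11 and attract monocytes and T cells were all highest in dendritic cells. Ccl3, Ccl4, Ccl5, Ccl6 and Ccl9 were each called lower in osteoclasts than in dendritic cells and higher in dendritic cells than in macrophages per the authors' deposited table. Against macrophages, osteoclasts had 3 of the 5 lower (Ccl3, Ccl4 and Ccl6) and 1 higher (Ccl9). Ccl9 was the only one of the 5 to be called higher in osteoclasts than in macrophages.

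Ccl9 encodes a CCR1 ligand released by osteoclasts in response to RANKL. Its mean was 89960 for dendritic cells, 45780 for osteoclasts and 26064 for macrophages per the authors' deposited table. It was higher in osteoclasts than in macrophages by 0.80 ± 0.23 (SE) on the log2 scale, with an adjusted p of 0.00262 per the authors' deposited table. Dendritic cells exceeded osteoclasts, with a fold change of osteoclasts against dendritic cells of -0.96 ± 0.23 (SE, adjusted p = 0.000124) per the authors' deposited table. As ratios of means these are 1.76-fold and 1.97-fold, so neither would pass a limit of 2-fold.

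Ccl6 encodes a CCR1 ligand found in rodents and not in people. Its mean of 253932 in dendritic cells was the highest of any ligand, against 8464 in macrophages and 3075 in osteoclasts per the authors' deposited table. The ratios to the dendritic level were 30.0-fold for macrophages and 82.6-fold for osteoclasts. Between osteoclasts and macrophages the log2 fold change was -1.42 ± 0.34 (SE, adjusted p = 0.000251) per the authors' deposited table.

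Ccl3 and Ccl4 encode MIP-1 alpha and MIP-1 beta, early products of activated macrophages. Osteoclast libraries a to d held 563, 675, 1211 and 710 reads of Ccl3 and 140, 140, 340 and 167 reads of Ccl4. Library c was the highest for each. The mean of Ccl3 was 17913 for dendritic cells, 789 for osteoclasts and 2963 for macrophages per the authors' deposited table. For Ccl4 the means in the same order were 5340, 197 and 1731 per the authors' deposited table. Osteoclasts fell below macrophages by log2 -1.88 ± 0.27 for Ccl3 (SE, adjusted p = 9.32e-11) and -3.07 ± 0.30 for Ccl4 (SE, adjusted p = 3.64e-23) per the authors' deposited table. The Ccl4 difference amounts to 8.80-fold between the means.

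Ccl5 (RANTES) attracts T cells and eosinophils and binds CCR1. Its reads were 11, 12, 27 and 12 in osteoclast libraries, 24, 8, 8 and 20 in macrophage libraries and 698, 593, 892 and 741 in dendritic libraries. The dendritic libraries did not overlap with either other cell type, while osteoclasts and macrophages overlapped. The log2 fold change of dendritic cells against macrophages was 5.56 ± 0.32 (SE, adjusted p = 1.83e-63) per the authors' deposited table. T cells and NK cells also make Ccl5. The 7 T and NK cell markers summed to between 45 and 48 reads per dendritic library, 30 and 90 per osteoclast library and 0 and 13 per macrophage library. Nkg7 and Gzmb, of cytotoxic granules, had means of 6.64 and 8.92 in dendritic cells and 0 elsewhere and were called higher there in both comparisons per the authors' deposited table. Klrb1c was at 28.8 in dendritic cells, 12.0 in osteoclasts and 4.63 in macrophages, and was called against macrophages, per the authors' deposited table. Cd3e was at 0.256 and Ncr1 at 0 in dendritic cells per the authors' deposited table. In osteoclasts Cd3e, Cd3g, Nkg7, Gzmb and Ncr1 were at 0, so Trac made up the rest beside Klrb1c of the list's summed mean. That sum was 70.3 in osteoclasts, above 47.2 in dendritic cells and 4.63 in macrophages, per the authors' deposited table. The part of such cells in the Ccl5 values was not tested.

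These 5 genes lie side by side on chromosome 11 (chr11:83525778-83664683, GRCm38), in the order Ccl5, Ccl9, Ccl6, Ccl3 and Ccl4. Of the 3 protein-coding genes on either side, 5 of 6 were called lower in osteoclasts than in dendritic cells per the authors' deposited table. Between dendritic cells and macrophages 4 of 6 were called higher in dendritic cells per the authors' deposited table. The shares of all tested genes called in these directions were 20.1% and 20.3%.

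The 130 bases before the start of Ccl9 are shown because it is the leading ligand of osteoclasts, and RANKL signalling acts through NF-kappa-B and AP-1. They are from RefSeq on GRCm38.p6 (chr11:83578637-83578766, reverse strand, written 5′ to 3′), with capitals for an AP-1 match (TGANTCA) 53 bases before the start and an NF-kappa-B match on the other strand (GGG, any 3 bases, then TTCC) 35 bases before it.

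Ccl9: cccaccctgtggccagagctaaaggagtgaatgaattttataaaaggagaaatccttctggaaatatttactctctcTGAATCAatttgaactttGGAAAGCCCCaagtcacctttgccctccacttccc

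A search of the 250 bases before each start, on both strands, found the NF-kappa-B letters in 4.65% of 32851 RefSeq promoters and TGANTCA in 6.75%. Of the 27 ligand genes with a promoter in that set, 7 held the NF-kappa-B letters (Ccl1, Ccl9, Ccl20, Cxcl1, Cxcl2, Cxcl3 and Cxcl10) and 4 the AP-1 letters (Ccl9, Ccl27a, Ccl27b and Cxcl10). Such a match is a description of the letters and not a measured binding site.

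The ligands of CCR4, which draws Th2 and regulatory T cells to dendritic cells, included the largest fold change of the family. Ccl17 (TARC) had 50, 67, 69 and 71 reads in the osteoclast libraries and 72, 65, 65 and 65 in the macrophage libraries. Those 2 sets overlapped. The mean in dendritic cells was 69230, which is 1078-fold the osteoclast mean of 64.2 and 1067-fold the macrophage mean of 64.9 per the authors' deposited table. The log2 fold change was 10.02 against macrophages, with an adjusted p listed as 0, per the authors' deposited table.

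Ccl22 (MDC) binds the same receptor. Osteoclast libraries held 364, 432, 385 and 124 reads and macrophage libraries 89, 57, 210 and 70. Osteoclast library d fell within the macrophage range, and the others lay above it. The mean in dendritic cells was 52708, against 325 in osteoclasts and 104 in macrophages per the authors' deposited table. Ccl22 was higher in osteoclasts than in macrophages by log2 1.59 ± 0.40 (SE, adjusted p = 0.000487) per the authors' deposited table. With limma on the recovered reads that difference was 1.69 and called. It was 1.46 to 1.66 and not called without osteoclast library a, b or c or macrophage library a, b or d, while it was called without osteoclast library d or macrophage library c. Macrophage library c, the highest for Ccl22, was also the highest of its group for Cx3cl1 (329 reads) and for H2-Ab1 (1126 reads against 617, 146 and 123), and the part of this in the result was not tested.

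Ccr4 itself was low everywhere, with means of 18.6 for dendritic cells, 3.24 for osteoclasts and 0 for macrophages per the authors' deposited table. Ccl22, Cx3cl1 and Ccl17 are adjacent on chromosome 8 (chr8:94745590-94812036), and all 3 were highest in dendritic cells. Of the 6 flanking protein-coding genes, 5 were also called higher in dendritic cells than in macrophages per the authors' deposited table, against 20.3% of all genes tested. Their log2 fold changes were 0.30 for Polr2c to 0.91 for Ciapin1, below those of the chemokine genes between them.

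The promoter of Ccl17 is shown because it was the ligand with the largest fold change. In chr8:94810323-94810452 (RefSeq, GRCm38.p6, forward strand) capitals mark the GAS letters TTCNNNGAA, the core sequence known for STAT factors, which begin 99 bases before the start.

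Ccl17: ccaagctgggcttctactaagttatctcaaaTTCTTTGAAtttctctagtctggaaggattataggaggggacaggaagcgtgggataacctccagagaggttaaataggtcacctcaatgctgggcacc

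GAS letters occurred in 7.02% of the 32851 promoters and in 2 of the 27 ligand promoters, Ccl17 and Cxcl14.

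**Figure D3:**
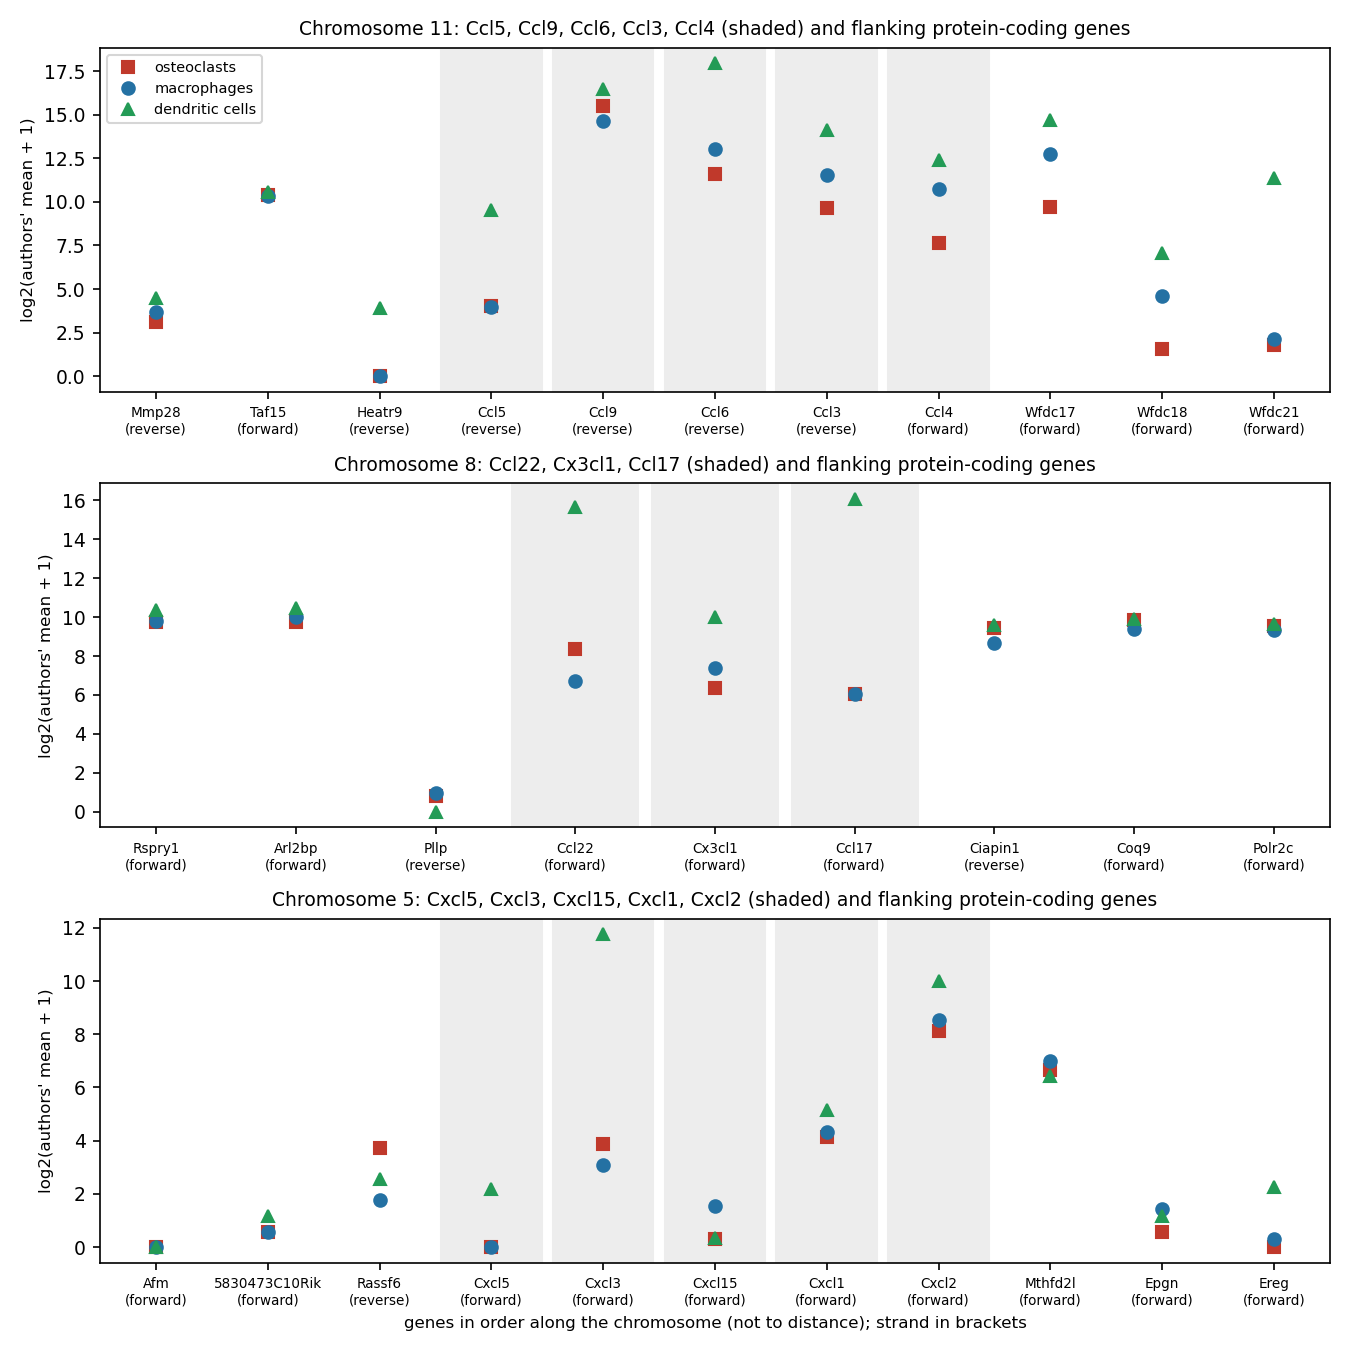
log2(authors' mean + 1) for 3 chemokine clusters (shaded) and the 3 protein-coding genes on each side, in chromosomal order but not to distance. On chromosome 8 the green triangles of Ccl22, Cx3cl1 and Ccl17 lie far above the other cell types, while those of the flanking genes lie close to them; on chromosome 11 the Wfdc genes beside Ccl4 also stand higher in dendritic cells.

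Cx3cl1 (fractalkine), a membrane-bound ligand of CX3CR1, had 104, 135, 44 and 43 reads in osteoclast libraries and 163, 93, 329 and 89 in macrophage libraries. Its mean in dendritic cells was 1044, against 81.2 and 164, per the authors' deposited table. Dendritic cells were higher than macrophages by log2 2.58 ± 0.40 (SE, adjusted p = 1.5e-09) per the authors' deposited table. Osteoclasts against macrophages gave -0.97 ± 0.41 (SE) and was not called (adjusted p = 0.0578) per the authors' deposited table, although it was with genes under 1 CPM left out or with upper-quartile scaling. Its receptor Cx3cr1 ran in another order, with 5510 in macrophages, 853 in osteoclasts and 308 in dendritic cells per the authors' deposited table.

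None of the monocyte-attracting ligands of CCR2 was called in any comparison per the authors' deposited table. Ccl7 and Ccl12 varied between libraries of the same cell type, while Ccl2 had no recovered reads. Ccl2 (MCP-1) had means of 6173 for dendritic cells, 1640 for osteoclasts and 2944 for macrophages per the authors' deposited table. The fold change of osteoclasts against dendritic cells was -1.64 ± 0.75 (SE, adjusted p = 0.0742) per the authors' deposited table. Ccl7 (MCP-3) had 74, 75, 368 and 394 reads in osteoclast libraries and 806, 801, 417 and 490 in dendritic libraries, which did not overlap. The authors' deposited table gives -1.18 ± 0.85 (SE, adjusted p = 0.299) for that comparison. limma on the recovered reads called it at -1.86, and no longer called it without dendritic library b or osteoclast library a or b.

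Ccl12 (MCP-5) had 4, 4, 55 and 99 reads in osteoclast libraries, 7, 176, 19 and 229 in macrophage libraries and 43, 80, 23 and 36 in dendritic libraries. All 3 cell types overlapped. Osteoclast libraries c and d were the high ones for both Ccl7 and Ccl12, and the stromal marker Col1a2 had 0, 0, 5 and 5 reads in libraries a to d. In macrophages Ccl12 was high in libraries b and d, where Col1a2 had 8 and 11 reads against 1 and 1. The stromal list of 7 genes, which includes Col1a2, summed to 196, 316, 273 and 450 reads in osteoclast libraries a to d. In macrophage libraries it summed to 123, 285, 320 and 354. The order of the libraries by this sum differed from that by Col1a2 in both cell types. In dendritic libraries the list summed to between 240 and 2025 reads, and none of its genes was at 0 in any cell type. The part of stromal cells in these values was not tested. Ccr2, the receptor of these ligands, had a mean of 19324 in dendritic cells against 291 in macrophages and 54.2 in osteoclasts per the authors' deposited table.

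Of the 5 ligands of CXCR2, which attract neutrophils, 3 were called higher in dendritic cells than in either other cell type. Among all genes tested, 20.1% were called lower in osteoclasts than in dendritic cells and 20.3% higher in dendritic cells than in macrophages. Cxcl3 had 8, 12, 5 and 29 reads in osteoclast libraries and 11, 4, 6 and 10 in macrophage libraries. Its mean in dendritic cells was 3456, which is 256-fold the osteoclast and 459-fold the macrophage mean per the authors' deposited table. Against macrophages the log2 fold change was 8.15 ± 0.59 (SE, adjusted p = 1.31e-41) per the authors' deposited table.

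Cxcl2 (MIP-2) had 358, 244, 172 and 345 reads in osteoclast libraries and 424, 342, 406 and 343 in macrophage libraries, with a mean of 1035 in dendritic cells per the authors' deposited table. Dendritic cells were higher than macrophages by log2 1.46 ± 0.30 (SE, adjusted p = 7.40e-06) per the authors' deposited table. Cxcl2 and Cxcl3 share 5.84% and 4.29% of their 50-base stretches with other genes, in part with each other, so a small part of their reads could be split between them. Cxcl1 (KC) had 18, 6, 11 and 32 reads in osteoclasts, 25, 23, 13 and 18 in macrophages and 30, 39, 47 and 20 in dendritic cells. It was not called in any comparison, with an adjusted p of 0.0564 between osteoclasts and dendritic cells per the authors' deposited table. That difference was called when genes under 1 CPM in both cell types were left out, and by limma without osteoclast library d (-1.55).

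Cxcl5 was seen in dendritic cells alone, with 0, 7, 3 and 4 reads. Its mean was 4.77-fold the level that 3 reads would give in osteoclasts and 4.90-fold that level in macrophages. These ratios leave out the counting error of its own few reads. The adjusted p was 0.00993 against osteoclasts and 0.00948 against macrophages per the authors' deposited table. limma on the recovered reads lost both calls when dendritic library b, c or d was left out, or any library of the other cell type. Those other libraries held 0 reads, and leaving one out kept the size of the difference at 1.85 (log2). There the call was lost with fewer libraries and an unchanged difference. Dendritic cultures also carried neutrophil markers. The 8 neutrophil genes had summed means of 14582 for dendritic cells, 92.0 for macrophages and 77.6 for osteoclasts per the authors' deposited table. S100a8 was the highest at 4302 in dendritic cells per the authors' deposited table. Elane was at 0 in osteoclasts and Camp and Ly6g were at 0 in macrophages, and in dendritic cells none was at 0. The list summed to between 63 and 107 reads in osteoclast libraries and between 34 and 154 in macrophage libraries. In dendritic libraries its 4 recovered genes summed to between 156 and 626. The receptor Cxcr2, which neutrophils carry, was 655 for dendritic cells, 7.81 for macrophages and 15.2 for osteoclasts per the authors' deposited table. The part of these cells in the ligand values was not tested.

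Cxcl5, Cxcl3, Cxcl15, Cxcl1 and Cxcl2 lie together on chromosome 5 (chr5:90759360-90905938). None of the 4 tested genes of the 6 that flank them was called between dendritic cells and macrophages per the authors' deposited table. Of all genes tested there, 20.3% were called higher and 16.4% lower in dendritic cells. The 130 bases before Cxcl1 (chr5:90891115-90891244), Cxcl2 (chr5:90903769-90903898) and Cxcl3 (chr5:90785971-90786100) are shown side by side because these genes share promoter letters. All are from RefSeq on GRCm38.p6, forward strand, with NF-kappa-B matches in capitals.

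Cxcl1: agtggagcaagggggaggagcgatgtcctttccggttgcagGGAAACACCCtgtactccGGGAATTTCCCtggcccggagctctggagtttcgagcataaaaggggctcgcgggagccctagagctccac

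Cxcl2: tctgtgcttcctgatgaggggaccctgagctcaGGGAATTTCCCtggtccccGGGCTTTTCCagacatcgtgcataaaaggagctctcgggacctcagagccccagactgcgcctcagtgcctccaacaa

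Cxcl3: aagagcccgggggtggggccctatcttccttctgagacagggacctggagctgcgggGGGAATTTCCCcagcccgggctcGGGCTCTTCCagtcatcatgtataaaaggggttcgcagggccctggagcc

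The same 10 letters, GGGAATTTCC, begin 71, 97 and 73 bases before the start of Cxcl1, Cxcl2 and Cxcl3. They overlap by 9 letters with a match on the other strand. They occurred in 28 of the 32851 promoters, or 0.0852%.

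The interferon-induced ligands of CXCR3, which attract activated T cells and NK cells, included 2 genes, Cxcl10 and Cxcl11, that were called higher in osteoclasts than in dendritic cells. Cxcl10 (IP-10) had 232, 247, 558 and 250 reads in osteoclast libraries, 142, 142, 120 and 165 in macrophage libraries and 113, 124, 46 and 81 in dendritic libraries. Every osteoclast library lay above every other library. Cxcl10 was higher than in dendritic cells by log2 1.75 ± 0.33 (SE, adjusted p = 7.49e-07) and higher than in macrophages with an adjusted p of 0.00175 per the authors' deposited table. Library c stood apart from the other 3. Without it, limma on the recovered reads gave 0.81 against macrophages and 1.47 against dendritic cells, called in both.

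Cxcl11 (I-TAC) was scarce, with 7, 7, 15 and 7 reads in osteoclasts, 3, 1, 6 and 1 in macrophages and 0, 2, 0 and 1 in dendritic cells. The osteoclast libraries lay above the rest. The ratio to dendritic cells was 11.8, with a 95% counting interval of 3.71 to 59.6. It was called against dendritic cells (adjusted p = 0.000957) and not against macrophages (adjusted p = 0.0662) per the authors' deposited table. Against macrophages limma on the recovered reads called it at 1.57. That call was lost without any 1 osteoclast library or macrophage library a, b or d, at 1.32 to 1.67, and was kept only without macrophage library c (1.94). Of the 50-base stretches of Cxcl11, 40.4% are shared with other genes, since it overlaps Gm2673, so its counts are uncertain. GENCODE classes Cxcl11 as a polymorphic pseudogene, and whether its RNA gives a working ligand in these mice was not tested.

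Cxcl9 (MIG), the remaining member of the group, had the opposite order. Its reads were 6, 5, 4 and 8 in osteoclasts, 16, 6, 10 and 14 in macrophages and 17, 19, 10 and 13 in dendritic cells. Osteoclasts were lower than dendritic cells by log2 -1.32 ± 0.46 (SE, adjusted p = 0.0133) per the authors' deposited table, and the libraries did not overlap. limma lost this call without dendritic library b (-1.12), osteoclast library b (-1.20) or osteoclast library c (-1.11). The receptor Cxcr3 was highest in macrophages at 224, then osteoclasts at 89.4, with 2.55 in dendritic cells, per the authors' deposited table.

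The promoter of Cxcl10 (chr5:92348890-92349139, RefSeq, GRCm38.p6, reverse strand, written 5′ to 3′) is shown because every osteoclast library of this gene lay above the others, and it holds 3 of the motifs searched. Capitals mark, from the left, the interferon-stimulated response element letters (GAAA, any 2 bases, then GAAA, 213 bases before the start), NF-kappa-B matches (159 and 104) and AP-1 (74).

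Cxcl10: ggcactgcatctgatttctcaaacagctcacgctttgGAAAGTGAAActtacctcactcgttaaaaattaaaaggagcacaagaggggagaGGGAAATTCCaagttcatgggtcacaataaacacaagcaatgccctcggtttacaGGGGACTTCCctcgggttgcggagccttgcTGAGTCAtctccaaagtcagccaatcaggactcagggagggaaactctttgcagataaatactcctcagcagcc

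The response element letters were found in 2.98% of the 32851 promoters and in 3 of the 27 ligand promoters (Ccl19, Cxcl10 and Cxcl14).

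**Figure D4:**
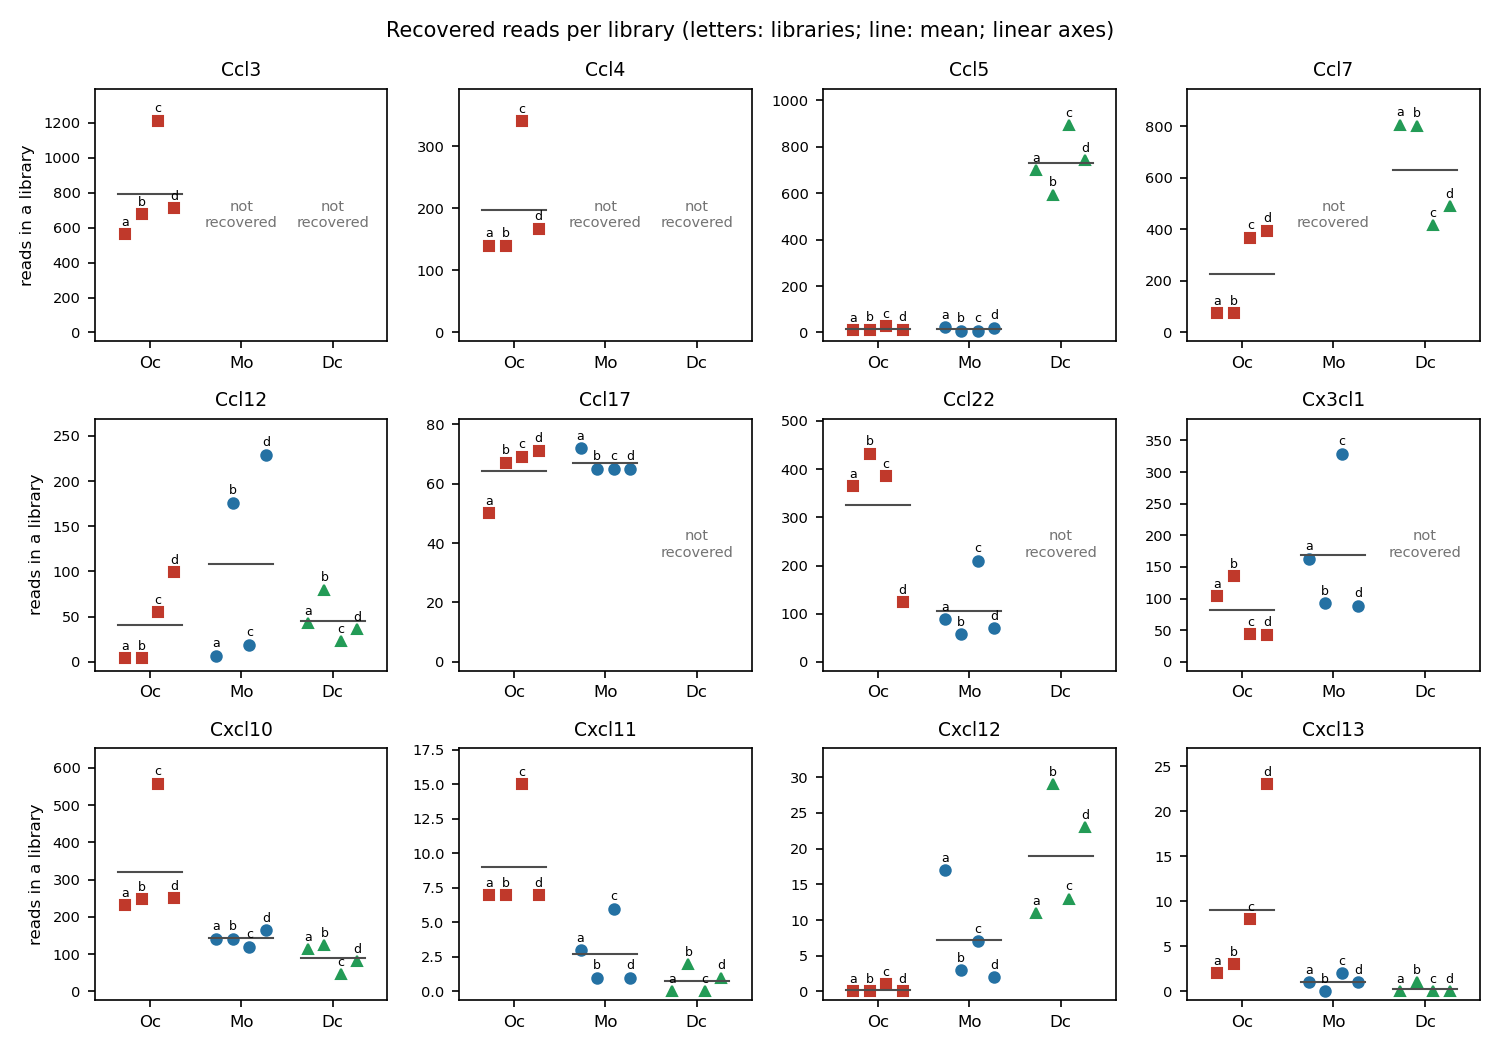
Recovered reads in each library (letters a to d) for 12 ligands in osteoclasts (Oc), macrophages (Mo) and dendritic cells (Dc), on linear axes with a line at the mean of the reads. Levels above a mean of 900 could not be recovered. Among the osteoclast libraries, c is the highest for Ccl3, Ccl4, Ccl5, Cxcl10 and Cxcl11, and c and d are for Ccl7 and Ccl12.

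Cxcl13, a B-cell attractant that binds CXCR5, had 2, 3, 8 and 23 reads in osteoclast libraries, 1, 0, 2 and 1 in macrophage libraries and 0, 1, 0 and 0 in dendritic libraries. No macrophage or dendritic library reached more than 2 reads, but library d held 23 of the 36 osteoclast reads. The ratio to dendritic cells was 35.5, with a 95% counting interval of 5.93 to 1430. It was called against macrophages (adjusted p = 0.0138) and dendritic cells (adjusted p = 0.000788) per the authors' deposited table. limma on the recovered reads did not call the difference from macrophages, and without osteoclast library d it was 1.37. It called the difference without osteoclast library a (2.37).

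Cxcl12 (SDF-1), the stromal ligand of CXCR4 that retains progenitors in marrow, was nearly lacking in osteoclasts. Reads were 0, 0, 1 and 0 in osteoclasts, 17, 3, 7 and 2 in macrophages and 11, 29, 13 and 23 in dendritic cells. With 1 osteoclast read in all, the macrophage ratio was 28.0 (95% counting interval 4.68 to 1153). The dendritic ratio was 77.5, with an interval of 13.5 to 3106. Osteoclasts were called lower than each, with adjusted p of 0.00118 and 3.42e-07 per the authors' deposited table. Between dendritic cells and macrophages it was not called (adjusted p = 0.0712) per the authors' deposited table. limma on the recovered reads gave 1.59 and did not call it, and of the fits that left out 1 library only the one without macrophage library a (2.08) called it.

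Cxcl14, a homeostatic chemokine whose receptor is less clear, was the ligand most reduced in dendritic cells against macrophages among those called. Its reads were 272, 197, 243 and 201 in dendritic libraries, and the means were 1205 in osteoclasts and 1804 in macrophages per the authors' deposited table. Dendritic cells were lower than macrophages by log2 -2.85 ± 0.39 (SE, adjusted p = 4.12e-12) per the authors' deposited table. Osteoclasts exceeded them by 2.29 ± 0.39 (SE, adjusted p = 4.37e-08) per the authors' deposited table.

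Cxcl16, a membrane-bound ligand of CXCR6 that also takes up oxidised lipoproteins, had nearly equal means of 5029, 4572 and 4582 in osteoclasts, macrophages and dendritic cells per the authors' deposited table. Its log2 fold changes were 0.13 ± 0.31, 0.13 ± 0.31 and 0.00 ± 0.31 (SE) in the 3 comparisons, and none was called, per the authors' deposited table. Of its 50-base stretches 16.9% overlap with Zmynd15. Cxcr6 was at means of 1.74, 2.20 and 3.06 per the authors' deposited table.

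Among the remaining CC ligands, Ccl24 and Ccl1 were called higher in dendritic cells than in either other cell type per the authors' deposited table. Ccl24, an eosinophil attractant (eotaxin-2) that binds CCR3, had 3, 1, 9 and 8 reads in osteoclasts, 14, 12, 2 and 4 in macrophages and 389, 145, 120 and 555 in dendritic cells. Dendritic libraries lay above all others. The ratio of means was 58.7 to osteoclasts and 39.9 to macrophages, with an adjusted p of 3.89e-19 and 7.25e-17 per the authors' deposited table. The 5 eosinophil markers had summed means of 8836 for dendritic cells, 54.5 for macrophages and 162 for osteoclasts per the authors' deposited table. Prg2 led at 4431 in dendritic cells per the authors' deposited table, and no marker of the list was at 0 in any cell type. Their summed reads ran from 40 to 290 in osteoclast libraries and from 20 to 118 in macrophage libraries. In dendritic libraries the 2 recovered genes summed to between 308 and 982. The part of eosinophils in the Ccl24 result was not tested. Its receptor Ccr3 was 48.0 for dendritic cells, 237 for osteoclasts and 126 for macrophages per the authors' deposited table. Of the 6 protein-coding genes that flank Ccl26 and Ccl24, 4 were called lower in dendritic cells than in macrophages and 0 higher, opposite to Ccl24. Among all genes tested 16.4% were called lower and 20.3% higher.

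Ccl1, the ligand of CCR8, had 6, 8, 1 and 17 reads in dendritic libraries and 0 in the others. Its mean was 10.9-fold the level that 3 reads would give in osteoclasts and 11.2-fold that level in macrophages. These ratios leave out the counting error of its own reads. The adjusted p was 0.000139 against osteoclasts and 0.000126 against macrophages per the authors' deposited table. Mast cells and basophils are known to make Ccl1. Their 6 markers summed to between 454 and 614 reads in dendritic libraries, 1 and 5 in osteoclast libraries and 2 and 4 in macrophage libraries, and their part in the result was not tested. Mcpt4 was at 0 in dendritic cells.

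Ccl25 (TECK), a CCR9 ligand of thymus and gut, had means of 84.1, 85.9 and 71.9 in osteoclasts, macrophages and dendritic cells and was not called per the authors' deposited table. Ccl27a, a skin-associated ligand of CCR10, had 15, 19, 23 and 24 reads in osteoclasts, 60, 31, 28 and 24 in macrophages and 8, 17, 18 and 24 in dendritic cells. It was called lower in dendritic cells than in macrophages at -0.99 ± 0.38 (SE, adjusted p = 0.0286) per the authors' deposited table. limma on the recovered reads did not call it (-0.98). With 45% of its 50-base stretches shared with other genes, copies included, its counts are uncertain.

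Of the 14 ligands not described so far, 7 had reads. Ccl28 had means of 2.75, 4.59 and 2.04 in osteoclasts, macrophages and dendritic cells per the authors' deposited table, and Ccl8, a CCR2 ligand, had 1.00, 0.978 and 1.53. Cxcl15 had 0.248, 1.95 and 0.254 per the authors' deposited table, and none of these was called. Ccl11, Ccl20, Cxcl17 and Xcl1 had reads in dendritic cells alone, with means under the level that 3 reads give. The other 7 were at 0 in all 3 cell types: Ccl19 and its pseudogenes Ccl19-ps1 and Ccl19-ps3, Ccl21a, Ccl21b, Ccl26 and Ccl27b. All of these but Ccl26 are copies or near copies within the Ccl19, Ccl21 and Ccl27 families, so reads that fit several copies may not have been counted; 100% of the 50-base stretches of Ccl21b and 98.1% of those of Ccl27b are shared. These names were chosen after the values were seen. The CCR7 ligands Ccl19 and Ccl21 were thus not detected, while Ccr7, which marks dendritic cells that migrate to lymph nodes, had a mean of 1186 in dendritic cells per the authors' deposited table, against 0, 4, 0 and 2 reads in osteoclast libraries and 1, 0, 1 and 1 in macrophage libraries.

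Of the 23 chemokine receptors listed, 20 were tested between dendritic cells and macrophages, with 11 higher in dendritic cells and 4 lower. Osteoclasts had 12 of 20 lower than dendritic cells and 4 higher, and 3 of 19 higher than macrophages and 6 lower, per the authors' deposited table. The called shares, in either direction, were 75%, 80% and 47.4% of the tested receptors in that order, against 36.7%, 36.9% and 29.3% of all tested genes. Ccr1, the receptor of Ccl9 and Ccl6, was 14308 for dendritic cells, 5270 for osteoclasts and 793 for macrophages per the authors' deposited table. It was higher in osteoclasts than in macrophages by log2 2.70 ± 0.22 (SE, adjusted p = 5.47e-33) per the authors' deposited table.

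Pf4 and Ppbp are CXC chemokines whose symbols fall outside the rule. Pf4 (CXCL4) had 351, 288, 398 and 1222 reads in osteoclast libraries and means of 3326 in macrophages and 2830 in dendritic cells per the authors' deposited table. It was lower in osteoclasts than in macrophages by log2 -2.36 ± 0.56 (SE, adjusted p = 0.000245) per the authors' deposited table. Ppbp (CXCL7) was 409 for dendritic cells, 8.50 for macrophages and 3.76 for osteoclasts per the authors' deposited table. Platelets carry both proteins, and of the 4 platelet and megakaryocyte markers Gp9 was at 0 in all 3 cell types. Their summed reads ran from 76 to 139 in dendritic libraries, 8 to 9 in macrophage libraries and 4 to 7 in osteoclast libraries, and their part in the result was not tested.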

How the data were processed

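RNA of 12 cultures, 4 per cell type, was sequenced. Per the labels' protocols the libraries were made from mRNA with a kit that keeps the strand, with single reads of 50 bases from 1 lane. The GRCm38 build appears, with DESeq2 2.13, Cufflinks 2.1.1, TopHat2 and Bowtie2 as tools, in the submitters' processing notes. How each was used, and with which annotation or strand setting: not given in the sources used here. Per the file headers, the deposited table sets cell types against each other in pairs. It gives the mean normalised signal (counts divided by size factors) in either cell type, the authors' log2 fold change, and the authors' p-value with its adjusted p-value. Calls are the authors', since the table has no column per library; the planned designs on such columns were replaced by these. Standard errors assume a two-sided Wald p-value, which is an inference.

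Whole reads per library were recovered from the means (4 libraries, limit of 900 chosen after seeing the data): 40715 of 40715 genes in osteoclasts, 40781 of 40790 in macrophages and 40651 of 40651 in dendritic cells had 1 solution. On simulated reads 925 of 925, 914 of 916 and 934 of 934 genes were recovered and 0 wrongly. Size factors ran from 0.975 to 1.04. limma 3.58.1 (R 4.3.3) was run on log2(normalised reads + 1) over genes recovered in both cell types with a mean of at least 1 in either, which leaves out the most abundant ligands. On simulated data for osteoclasts against macrophages (12982 genes) it recovered 56% of 2-fold and 100% of 4-fold changes. The simulation gave all genes the same dispersion of 0.05. Some ligands varied more, such as Ccl7 in osteoclasts, with a standard deviation of 179 on a mean of 228. Genes as scarce as Cxcl5, Cxcl11 and Cxcl13 were not among those changed, so these rates do not apply to them. Coordinates and lengths are from GENCODE M21 on GRCm38, and promoters from RefSeq on GRCm38.p6. All 40 ligand genes matched GENCODE, and 27 had a promoter.

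Whether libraries came from separate animals rests on the labels' statement of independent extractions. Counting intervals and the limit of 3 reads cover counting error only. The members, the lists of receptors and cell type markers and the rule for named genes were chosen with earlier results of these data known. The rule names ligands with a mean of at least 10 in a cell type or a call in a comparison, and receptors of the ligands described or with the smallest p. Alternatives were other adjustments, filters, scalings and thresholds, limma on the recovered reads, and leaving out each library.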

Additional observations from a re-analysis of the deposited data

Results flagged for a closer look

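Each recovered ligand with a mean of at least 5 in a cell type was checked for a library whose gap to the nearest other was too large a part of the range of its 4 libraries by Dixon's 95% critical value. Of 44 such groups 5 had one, and chance flags about 1 in 20. Osteoclast library c was the highest for 4 of these. It had 340 reads of Ccl4 against 140, 140 and 167 (gap over range 0.855), 27 of Ccl5 against 11, 12 and 12 (0.928), 558 of Cxcl10 against 232, 247 and 250 (0.935), and 15 of Cxcl11 against 7, 7 and 7 (0.988). The same library had 1290 reads of the osteoclast marker Calcr against 582, 587 and 564. Macrophage library a had 72 reads of Ccl17 against 65, 65 and 65 (0.899), a narrow range in all 4 libraries. Whether libraries of several cell types taken from the same mouse share such features cannot be told, since the letters carry no replicate number.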

How the results depend on the processing

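The 77 results for named ligands gave 818 values under the alternatives, of which 760 kept direction and call. Of these results, 64 changed under no alternative, 13 changed under at least 1, and 0 reversed. The totals by comparison moved as follows. Lower ligands of osteoclasts against macrophages numbered 1 with limma on recovered reads (19 tested) and lower receptors 3. Against dendritic cells, higher ligands numbered 2 when genes under 1 CPM in both cell types were left out, lower receptors 7 with that filter, and lower ligands 7 with limma (16 tested). Between dendritic cells and macrophages, lower ligands numbered 1 at an adjusted p under 0.01 and 0 with limma (15 tested), higher ligands 4 with limma, higher receptors 7 with limma and 7 with the 1 CPM filter, and lower receptors 2 with limma. limma tested fewer genes, since the abundant ones were not recovered. Over all genes it called 1213 higher and 1134 lower of 12982 for osteoclasts against macrophages. Against dendritic cells it called 1906 higher and 2711 lower of 13865, and between dendritic cells and macrophages 2270 and 1488 of 13831. Leaving out 1 library lowered nearly all of these counts, such as the 1213 to between 874 and 1119. On the recovered ligands alone, both methods called 3 together for osteoclasts against macrophages, 9 against dendritic cells and 4 between dendritic cells and macrophages, while Cxcl13 and Ccl27a were called by the authors alone and Cxcl11 and Ccl7 by limma alone. Leaving out each library gave 1 to 3 higher and 1 to 1 lower ligands for osteoclasts against macrophages, 3 to 3 and 4 to 7 against dendritic cells, and 3 to 4 and 0 to 1 between dendritic cells and macrophages; receptors gave 1 to 2 and 3 to 3, 3 to 5 and 5 to 8, and 6 to 7 and 2 to 2. With each library left out, the summed means of the named ligands with recovered reads ran from 2209 to 2665 in osteoclasts. They ran from 1077 to 1176 in macrophages and from 2147 to 2341 in dendritic cells. The ligands recovered differ between cell types, and the most abundant ligands of each are left out. These ranges show the spread within a cell type only and cannot be compared between cell types. With the longest transcript as length, Ccl9 had 15229 and 8671 per kilobase in osteoclasts and macrophages, and Ccl6 176342 in dendritic cells. No paired analysis was possible because the table has means per cell type, and recovered libraries carry no replicate number.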

Other observations

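Several genes beside the chemokine clusters also differed between the cell types. Wfdc17, a secreted protein of the WAP family next to Ccl4, had means of 26658 for dendritic cells, 831 for osteoclasts and 6801 for macrophages per the authors' deposited table. Wfdc21 in the same stretch had 2708, 2.50 and 3.42 in that order per the authors' deposited table. Beside Cxcl9, Naaa, a lysosomal amidase, had 19540, 1886 and 434 per the authors' deposited table, and Ppef2 had 154, 9.73 and 1.47. Naaa and Ppef2 were called in all 3 comparisons, and between osteoclasts and dendritic cells they ran in the opposite direction to Cxcl10 and Cxcl11 of the same locus. Between osteoclasts and macrophages they were higher in osteoclasts, as Cxcl10 was. In that comparison 4 of the 5 tested flanking genes of this locus were called higher and 1 lower, against 14.5% and 14.7% of all genes tested.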
